A study of Mus musculus with 81 samples.

Results

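Notch1 and Notch3, receptors of the Notch family, and 5 genes known as Notch targets (Hes1, Heyl, Dtx1, Nrarp and Ptcra) were read out of RNA sequencing of mouse thymic tissue. These 7 genes were chosen by name out of 51826 genes in the deposited table, each symbol occurring once, and all 7 passed the filter on low counts in every fit. The libraries, 81 in all from 40 mice, came from normal thymus or from tumours labelled thymic lymphoma. Tumour tissue of 13 mice was sampled in 4 or 5 places (54 biopsies), and the other 18 lymphoma mice gave 1 biopsy each.

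Every animal, controls included, was of a C57BL/6 x 129S4Sv/Jae background and carried the alleles Plk4(Col1a1), rtTA(Rosa) and centrin-GFP(Rosa). Plk4 is a protein kinase needed to form new centrioles, and doxycycline turns its transgene on wherever rtTA is made. The groups were normal thymus of 8 untreated p53+/+ mice, lymphomas of 10 untreated p53-/- mice, lymphomas of 9 p53-/- mice given doxycycline, and lymphomas of 12 p53+/- mice given doxycycline. Doxycycline ran for 2 weeks from day 30 of age, and the age at sampling is not given in the sources used here. Labelled males were 4 of 8, 9 of 10, 4 of 9 and 3 of 12 in these groups, so that untreated p53-/- against treated p53+/- lymphomas is largely a comparison of males with females, and labelled sex was a covariate in the edgeR fits but not in the permutation tests. A single normal thymus from an untreated p53+/- mouse (mouse 819) was kept apart. No untreated p53+/- lymphoma was analysed here, so among p53+/- tumours the effect of doxycycline cannot be told apart from that of genotype. According to its design text, the study asked how aneuploidy affects tumour development.

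Notch receptors are single-pass membrane proteins. A ligand of the Delta or Jagged family on a neighbouring cell exposes the receptor to cleavage, first by ADAM10 and then by gamma-secretase, and the freed intracellular domain enters the nucleus, where it joins the DNA-binding protein RBPJ and a Mastermind coactivator to switch on target genes. In the thymus, Delta-like 4 on epithelial cells engages Notch1 on incoming progenitors and commits them to the T lineage, and signalling falls once the pre-T-cell receptor has been assembled. Mutations that make Notch1 active without ligand are frequent in T-cell acute lymphoblastic leukaemia and in mouse thymic lymphoma. Gene-level counts do not show such mutations, the exons read, or the cleaved protein.

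Values below are CPM, a gene's counts per 1 M (SI mega) counts of its library, scaled between libraries by TMM factors and summed over the biopsies of a mouse, unless a biopsy is named. Library totals ran from 1.03 M to 26.87 M counts, and 4 biopsies held under 5 M. The T-lineage markers (8 genes, Cd3e and Lck among them) summed to between 2025 and 5454 CPM in 30 of the 31 lymphomas. The exception was mouse 881, an untreated p53-/- animal, with a T-lineage sum of 306 CPM, Cd3e at 1.7 CPM, Cd79a at 813.3 CPM and Ebf1 at 494.8 CPM. Its tumour thus carried B-lineage rather than T-lineage markers, and the label states no lineage. Normal thymus 387 also stood apart, with a T-lineage sum of 738 CPM against 3355 to 4786 CPM in the other 7 p53+/+ thymuses. In 3 mice (869, 870 and 328) the sex genes went against the labelled sex. The tissue is bulk, so fewer cells of a type and less RNA per cell cannot be told apart.

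All 7 genes stood above every p53+/+ thymus in 15 of the 31 lymphomas. Each of the 7 did so in at least 21 of them. At the looser threshold of more than 15 lymphomas, 32.2% of all 17843 genes tested did so. The share of all genes at 21 or more, or of sets of 7 genes together, was not counted. Below every normal thymus were 5 of the genes in mouse 120, mouse 202 and mouse 884, and 3 in mouse 881 and in mouse 266. The single p53+/- normal thymus lay inside the p53+/+ range for all 7 genes.

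**Figure D1:**
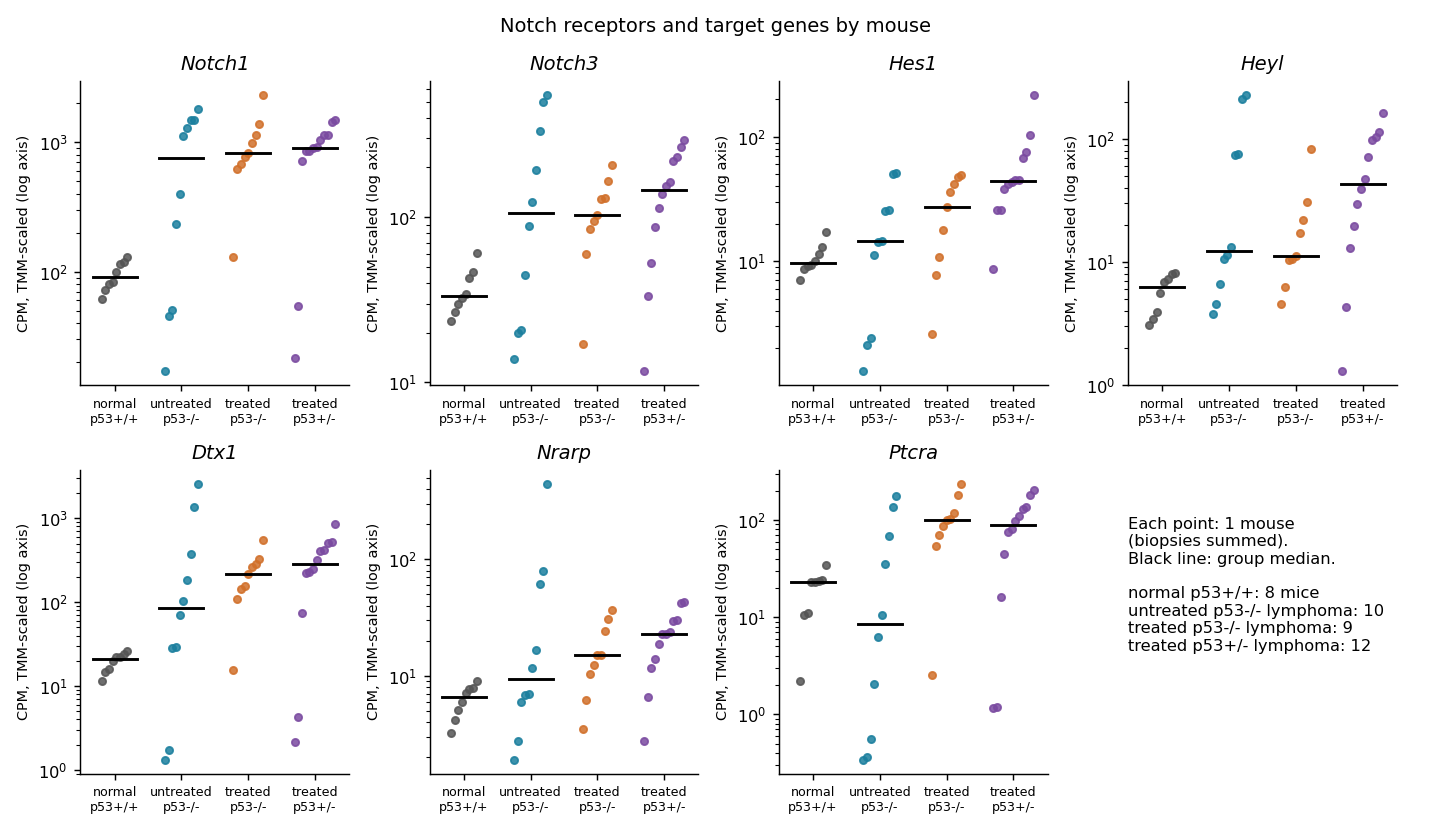
CPM of the 7 genes on log axes, 1 point per mouse with the biopsies of a mouse summed and a black line at the group median, in 8 normal thymuses and in 10, 9 and 12 lymphomas. Normal thymuses span a narrow range (61.5 to 129.6 CPM for Notch1), while each lymphoma group has most points above it and a few below.

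Notch1 (ENSMUSG00000026923, build mm10, chromosome 2, 26457903 to 26516663, minus strand), the receptor that early thymocytes depend on, read between 61.5 and 129.6 CPM in normal thymus, with a median of 91.2. In untreated p53-/- lymphomas the lowest, median and highest values were 17.05, 750.6 and 1806 CPM. The treated p53-/- lymphomas ran from 130.5 over a median of 821.5 to 2310 CPM, and the treated p53+/- lymphomas from 21.5 over 906.3 to 1481 CPM. Every one of the 9 treated p53-/- lymphomas was above every normal thymus, mouse 869 by less than 1 CPM, and 11.4% of all genes tested behaved in that way. In the untreated p53-/- and treated p53+/- groups 6.8% and 9.78% of all genes did, and 0 of the 7 members. In the other groups no tumour lay inside the normal range: 7 untreated p53-/- tumours were above it and 3 below, and 10 treated p53+/- tumours were above it and 2 below. The 5 low tumours were 120 (17.05 CPM), 881 (45.5), 202 (50.5), 266 (21.5) and 884 (54.1).

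Against normal thymus, Notch1 rose by a log2 value of 2.68 ± 0.71 (SE) without treatment (edgeR adjusted p of 0.00287). After doxycycline it rose by 3.17 ± 0.70 in p53-/- (0.000278) and by 3.13 ± 0.68 in p53+/- mice (0.00025). The 5 fat markers summed to 618.1 to 8890 CPM in these normal thymuses and to medians of 54.7, 78.1 and 65.1 CPM in the 3 lymphoma groups, a shift that runs along with every contrast with normal thymus and whose part in it was not tested. These fits compare means of counts, which a few high tumours can carry. An exact two-sided permutation test of mean log2 CPM, 1 of 42 such tests, gave p = 0.0536 for the untreated group, in which 7 of 10 tumours were higher. For the treated groups it gave p = 8.23e-05 and p = 0.00162. Without mouse 881 the untreated value was 2.81 with an adjusted p of 0.00123. In limma's voom over all biopsies the untreated value was 1.29 with an adjusted p of 0.173.

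Notch3 (ENSMUSG00000038146, chromosome 17, 32120820 to 32166852, minus strand), a receptor of immature thymocytes and of the smooth muscle cells and pericytes of vessels, read between 23.5 and 60.5 CPM in normal thymus (median 33.3). The lowest, median and highest values were 13.8, 106.4 and 550.5 CPM in untreated p53-/-, 16.98, 102.5 and 206.4 in treated p53-/-, and 11.7, 146.1 and 293.1 in treated p53+/- lymphomas. Of the 31 lymphomas 22 exceeded the normal range, 5 fell short of it and 4 lay inside. In that order of groups it rose by log2 values of 2.05 ± 0.63, 1.41 ± 0.58 and 1.88 ± 0.58 (edgeR adjusted p 0.00847, 0.041 and 0.00708). Exact permutation p-values were 0.0715, 0.00522 and 0.00648. The untreated call was lost in voom (0.87, adjusted p of 0.232), and the treated p53-/- call with no filter on low counts (0.0771) and in voom (0.107). The highest Notch3 value, in mouse 643, came with the lowest sum of the 7 pericyte and smooth muscle markers of any mouse, 73.7 CPM, against 91.0 to 577.5 CPM in normal thymus. The next highest, mouse 157 (497.6 CPM of Notch3), had the highest such sum, 908.7 CPM, most of it Pdgfrb, and the part of these cells was not tested.

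Per kilobase of exon, Notch1 was the higher of the 2 receptors in every group, with a median of 6.41 CPM per kilobase in normal thymus against 4.12 for Notch3, ranges that overlap. In lymphomas the distance was wider, for example 63.7 against 18.1 CPM per kilobase in the treated p53+/- group. On the same scale Ptcra headed the 7 genes in normal thymus (17.98 CPM per kilobase) and Heyl was last (1.22), and Heyl was last in each lymphoma group too. Notch1 led in untreated p53-/- lymphomas (52.7) and Ptcra in both treated groups (77.2 and 69.8), where the ranges of Ptcra and Notch1 overlapped.

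Dtx1 (ENSMUSG00000029603, chromosome 5, 120680202 to 120711927, minus strand), an E3 ubiquitin ligase that binds the intracellular part of Notch, stood at 11.52 to 26.03 CPM in normal thymus (median 20.97). The untreated p53-/- lymphomas spanned 1.31 to 2604 CPM around a median of 86.2, which is a 1988-fold range, against 2.26-fold over the normal thymuses. The treated p53-/- lymphomas spanned 15.6 to 558.3 (median 215.0) and the treated p53+/- lymphomas 2.15 to 858.2 (median 282.9). Dtx1 was above every normal thymus in 26 of the 31 lymphomas and below in 4 (120, 202, 266 and 884). The B-lineage tumour 881 was above, at 28.2 CPM, while mouse 869 lay within the range.

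Fitted log2 changes of Dtx1 were 4.33 ± 1.12, 3.40 ± 1.01 and 3.86 ± 1.01 (edgeR adjusted p 0.00212, 0.00502 and 0.00175). In the untreated group the difference of mean log2 CPM was 1.92 with an exact permutation p of 0.158, and the edgeR call was lost when only the 2 groups were fitted (adjusted p of 0.0593) and in voom (1.204, 0.465). In treated p53-/- lymphomas it was lost in voom (2.60, 0.0763). In the treated groups the differences were 3.16 (exact permutation p = 0.000329) and 2.97 (p = 0.00954). Genes of chromosome 5 as a whole had a median log2 fold change of 0.49, 0.48 and 0.44 in the same contrasts, against 0.08, -0.04 and 0.00 over all genes.

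Nrarp (ENSMUSG00000078202, chromosome 2, 25180758 to 25183339, plus strand) encodes an ankyrin repeat protein that feeds back on the Notch complex. It read 3.24 to 9.04 CPM in normal thymus (median 6.54). Median levels were 9.37 CPM in untreated lymphomas, 15.2 CPM in p53-/- lymphomas after doxycycline and 22.9 CPM in the p53+/- ones, the last group ranging from 2.73 to 43.2 with 10 of 12 tumours above every normal thymus. In the untreated group 5 of 10 tumours were above every normal thymus, and mouse 643 alone reached 446.4 CPM, the next being mouse 899 at 79.2. The edgeR log2 fold change of 2.87 ± 0.84 there (adjusted p of 0.00636) stood beside a difference of mean log2 CPM of 1.34 (exact permutation p = 0.149). That call was lost with only the 2 groups fitted (3.02, adjusted p of 0.111) and in voom (0.96, 0.216). In treated p53-/- lymphomas the value was 1.24 ± 0.72 (edgeR adjusted p of 0.15), with 7 of 9 tumours above every normal thymus and an exact permutation p of 0.0132. Treated p53+/- lymphomas gave 1.68 ± 0.71, an edgeR adjusted p of 0.0445 and an exact permutation p of 0.0027, and the edgeR call was lost with no filter on low counts (0.0752) and in single-biopsy tumours (0.118).

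Hes1 (ENSMUSG00000022528, chromosome 16, 30064384 to 30067796, plus strand), a transcriptional repressor and the classic Notch target, read 7.03 to 17.1 CPM in normal thymus (median 9.73). Untreated p53-/- lymphomas ran from 1.30 over a median of 14.4 to 50.8 CPM, with 4 of 10 above every normal thymus and 3 below. Treated p53-/- lymphomas ran from 2.61 over 27.3 to 49.4, with 6 of 9 above. Treated p53+/- lymphomas ran from 8.66 over 44.05 to 217.9, with 11 of 12 above and none below, the highest being mouse 280. Hes1 rose in the treated p53+/- group by a log2 value of 2.28 ± 0.61 (edgeR adjusted p of 0.00227). The values of 0.77 ± 0.61 (0.321) and 1.13 ± 0.59 (0.105) in the untreated and treated p53-/- groups did not pass.

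Heyl (ENSMUSG00000032744, chromosome 4, 123233556 to 123249875, plus strand), a repressor of the Hey family, read 3.05 to 8.06 CPM in normal thymus (median 6.24). The lowest, median and highest values were 3.78, 12.3 and 228.7 CPM in untreated p53-/-, 4.53, 11.2 and 82.9 in treated p53-/-, and 1.29, 43.3 and 161.6 in treated p53+/- lymphomas. Of the 31 lymphomas 24 exceeded the normal range and 1, mouse 309, fell short of it. Log2 changes were 3.56 ± 0.89, 1.64 ± 0.78 and 3.07 ± 0.80 (edgeR adjusted p 0.00154, 0.0755 and 0.00164), so that the treated p53-/- value did not pass. For Heyl the exact permutation p, unadjusted over 42 such tests, was 0.021, 0.00658 and 0.00467 in the 3 groups. In voom the untreated value was 1.61 and the call was lost (adjusted p of 0.114). Heyl is also known from pericytes. The tumours with the highest Heyl, 643 and 157 (211.4 CPM), had the smooth muscle genes Myh11 at 0.1 and 5.1 CPM and Acta2 at 9.8 and 10.9 CPM, while normal thymuses had 9.5 to 38.6 and 9.0 to 55.1 CPM. Rgs5, another gene of these cells, read 11.4 and 11.1 CPM in mice 643 and 157, against 28.9 to 203.3 CPM in normal thymus. Pdgfrb, a pericyte receptor, read 17.9 and 839.5 CPM in the same 2 mice, against 9.4 to 51.2 CPM. The sum of the 7 pericyte and smooth muscle markers was the lowest of all mice in 643 and the highest in 157. The part of these cells in Heyl was not tested.

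Ptcra (ENSMUSG00000036858, chromosome 17, 46755663 to 46763712, minus strand) encodes the pre-T-cell receptor alpha chain, used by thymocytes before the mature alpha chain is made. Its promoter is shown because it was the only one of the 5 found in RefSeq (Notch1, Notch3, Dtx1, Nrarp and Ptcra, GRCm38.p6) that held the core motif of RBPJ. The motifs searched, on both strands of the 250 bases before the RefSeq start, were TGGGAA (RBPJ core, reverse TTCCCA) and CAGCTG (an E-box bound by E proteins, its own reverse), which do not overlap each other here. They occur in 21.6% and 13% of the 32851 promoter windows of that length in the table. Capitals mark matches, and Dtx1 and Nrarp, the other targets found, are printed for comparison. Ptcra lies at chr17:46763713-46763962 (minus), Dtx1 at chr5:120711670-120711919 (minus) and Nrarp at chr2:25180508-25180757 (plus).
Ptcra: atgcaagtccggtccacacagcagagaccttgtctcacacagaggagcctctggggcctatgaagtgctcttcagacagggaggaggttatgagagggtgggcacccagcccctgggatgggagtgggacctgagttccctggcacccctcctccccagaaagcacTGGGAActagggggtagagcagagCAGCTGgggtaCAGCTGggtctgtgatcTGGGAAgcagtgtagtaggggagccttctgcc
Dtx1: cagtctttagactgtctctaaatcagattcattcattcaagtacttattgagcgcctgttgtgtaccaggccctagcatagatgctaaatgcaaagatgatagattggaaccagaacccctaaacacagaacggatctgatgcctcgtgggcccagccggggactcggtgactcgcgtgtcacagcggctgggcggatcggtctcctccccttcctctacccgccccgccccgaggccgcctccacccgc
Nrarp: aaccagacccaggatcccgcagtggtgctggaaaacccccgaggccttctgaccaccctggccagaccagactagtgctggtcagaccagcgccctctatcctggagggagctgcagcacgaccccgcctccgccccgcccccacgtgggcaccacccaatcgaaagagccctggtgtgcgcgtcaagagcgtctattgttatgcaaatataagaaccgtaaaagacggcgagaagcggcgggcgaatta
The Ptcra window held 2 RBPJ cores, starting 84 and 32 bases before the start site, and 2 E-boxes between them, at 60 and 49 bases. The Dtx1 and Nrarp windows held 0 of either motif, as did those of Notch1 and Notch3. A match of letters is not a measured binding site.

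Ptcra read 2.19 to 34.4 CPM in normal thymus, where the lowest value belonged to thymus 387 and the other 7 lay between 10.5 and 34.4. It split the untreated p53-/- lymphomas, with 4 of 10 above every normal thymus, 4 below (120, 157, 202 and 881) and a median of 8.41 CPM. In treated p53-/- lymphomas 8 of 9 were above (median 99.1, range 2.52 to 236.8), and in treated p53+/- lymphomas 9 of 12 (median 89.6, range 1.17 to 203.2). Ptcra rose in both treated groups, by log2 values of 2.42 ± 0.96 and 2.20 ± 0.93 (edgeR adjusted p of 0.0335 and 0.0458), and was at 0.81 ± 0.95 (0.518) in the untreated group. Without thymus 387 both calls were lost (2.34 with 0.0521, and 2.13 with 0.0713). The treated p53-/- call was also lost with no filter (0.0707) and in voom (0.107). The treated p53+/- call held in 6 of 13 alternatives and was also lost with no scaling (0.0545), no filter (0.0868), voom (0.142), no sex covariate (0.053), the deepest biopsy of each mouse (0.0512), and without mice whose sex genes go against the label (0.0656). The exact permutation test gave p = 0.0138 and p = 0.14 for the treated groups. Mouse 157 combined Notch1 at 1482 CPM, Notch3 at 497.6 CPM and Heyl at 211.4 CPM with Ptcra at 2.05 and Nrarp at 1.90 CPM, so that receptors and targets did not all go together in that tumour.

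Counted over the members, 5 of 7 were called higher than normal thymus in untreated p53-/- lymphomas, 4 of 7 in treated p53-/- and 7 of 7 in treated p53+/- lymphomas, and none was called lower. Among all 17843 genes, 23.2%, 25.4% and 25.6% were called higher in those contrasts, and 40.7%, 52.1% and 50.9% in either direction. The median log2 fold change of the 7 was 2.68, 1.64 and 2.28, against 0.08, -0.04 and 0.00 over all genes. The 3 contrasts share the same 8 controls and do not replicate each other. Leaving out scaling factors moved the median of all genes by -0.13 and -0.12 in the untreated p53-/- and treated p53+/- contrasts, and the 7 members stayed positive in each of the 3 contrasts. In voom the counts called were 0, 1 and 6 of 7, and the values of Hes1 (-0.11) and Ptcra (-1.61) in the untreated group turned negative.

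**Figure D2:**
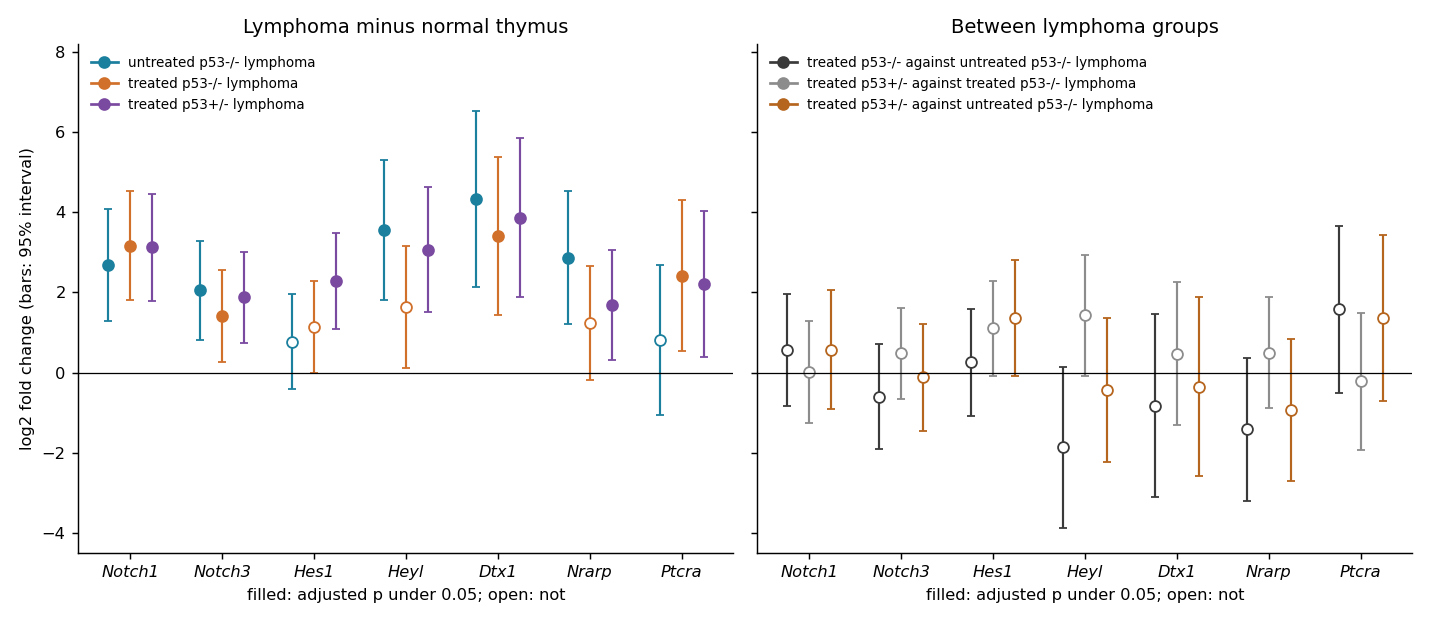
Log2 fold change of each gene from edgeR with its 95% interval, for the 3 contrasts with normal thymus (left) and the 3 contrasts between lymphoma groups (right), filled where the adjusted p was under 0.05. All 21 values on the left are above 0 and 16 are filled, while none is filled on the right.

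Between lymphoma groups no member was called, and 0% of the 16389 genes tested were called in any of the 3 contrasts. At an unadjusted edgeR p under 0.05 there were 1918, 864 and 1039 genes but none of the 7 members, and DESeq2 and voom called no member either. Over all genes DESeq2 called 76, 12 and 3, and voom 39, 1 and 1. The intervals were wide. For Notch1 the 95% interval of the log2 difference was -0.83 to 1.95 for treated against untreated p53-/-, and -1.27 to 1.28 for treated p53+/- against treated p53-/- lymphomas. For Dtx1 the corresponding intervals were -3.12 to 1.46 and -1.32 to 2.26. Hes1 had the lowest p of the 7 in the contrast of treated p53+/- with untreated p53-/- lymphomas (1.36 ± 0.74, edgeR adjusted p of 0.805). A permutation test of mean log2 CPM gave p = 0.00406 for that difference of 2.05, and an exact permutation p of 0.0367 for Hes1 between the treated groups. It also gave an exact p of 0.0265 for Ptcra between treated and untreated p53-/- lymphomas, a difference of 3.17. These were 3 of 21 unadjusted tests between lymphoma groups. Ptcra medians were 8.41 CPM in untreated and 99.1 CPM in treated p53-/- tumours, with ranges that overlap.

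**Figure D3:**
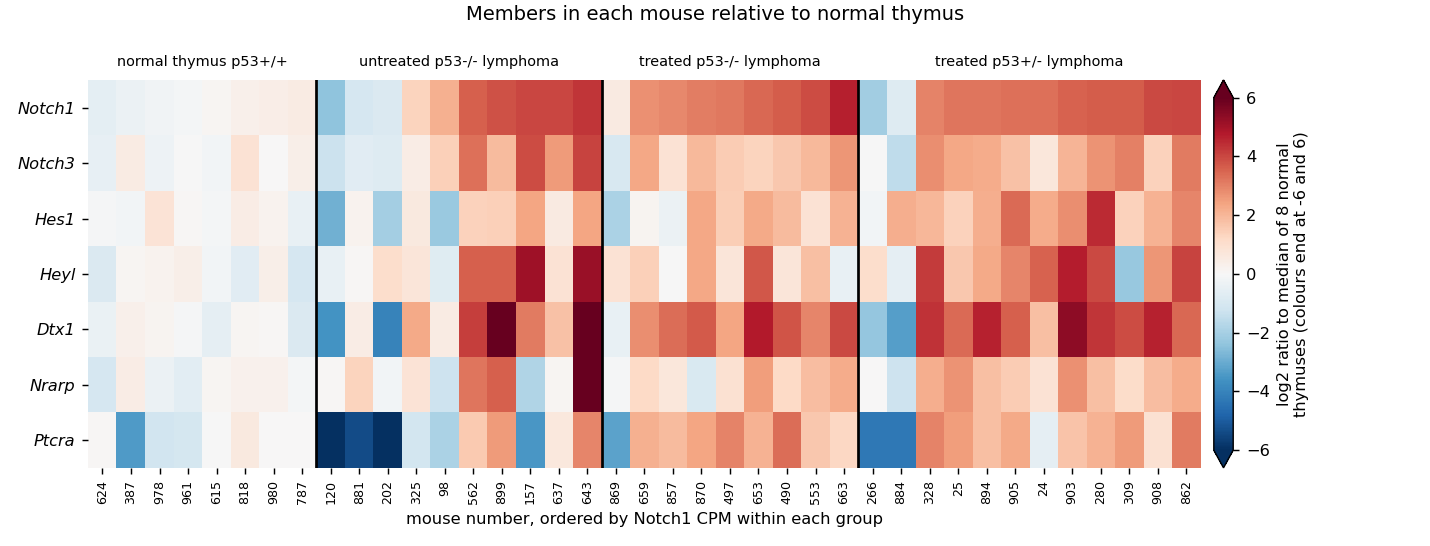
Log2 ratio of each gene's CPM to its median over the 8 normal thymuses, 1 column per mouse ordered by Notch1 within its group, red above and blue below that median, with colours ending at 6 log2 units either way. Columns at the left of each lymphoma group (120, 881 and 202, then 869, then 266 and 884) are blue or pale in most rows, and 15 lymphomas exceed every normal thymus in all 7 rows.

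The sum of stage markers was low in the tumours with Notch1 below the normal range, and in some others. Mice 120 and 202 had T-lineage sums of 2422 and 2025 CPM and Cd3e at 384.8 and 328.5 CPM, but Rag1, the recombinase of immature lymphocytes, at 1.5 and 0.3 CPM, where normal thymuses read 255.3 to 2015 CPM. Mice 266 and 884 had Rag1 at 98.1 and 31.4 CPM and Cd8a at 48.8 and 63.2 CPM, where normal thymuses read Cd8a at 177.7 to 1289 CPM. Not every stage marker was low: Cd4 read 393.8 CPM in mouse 266, inside the normal range of 159.6 to 884.9 CPM. In mice 120, 202 and 884 Cd4 read 37.2, 46.0 and 96.4 CPM. The 11 thymocyte stage markers summed to 453, 148, 895 and 472 CPM in mice 120, 202, 266 and 884, against a median of 5756 CPM in normal thymus and medians of 1814, 3075 and 2223 CPM in the 3 lymphoma groups, in the order used above. Mouse 157, with Notch1 at 1482 CPM, had a sum of 534 CPM, Rag1 at 26.8 CPM and Cd8a at 50.1 CPM. In mouse 869 the sum was 3075 CPM, with Cd8a at 845.3 CPM and Rag1 at 967.5 CPM. Fibroblast markers reached 3154 CPM in mouse 266, the highest of all mice. The part of cell stage and of other cells in the low Notch values was not tested.

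Across the 31 lymphomas, on log2 CPM, Pearson's r passed in 20 of 21 pairs of members at a Benjamini-Hochberg adjusted permutation p under 0.05 (100000 resamples), the exception being Heyl with Ptcra (r = 0.35, adjusted p = 0.0525). These 20 pairs had r of at least 0.4, which 5.39% of all pairs of the 16389 genes reached over the same tumours. By r the strongest pair was Notch1 with Dtx1 (r = 0.88, adjusted p = 3.5e-05, rho = 0.65, adjusted p = 0.000378), and r was 0.83 without mice 120 and 266, the 2 farthest from the Notch1 median. By rho it was Dtx1 with Nrarp (rho = 0.78). Next by r were Dtx1 with Ptcra (r = 0.86, rho = 0.66), Notch1 with Notch3 (r = 0.85, rho = 0.73) and Notch1 with Ptcra (r = 0.85, rho = 0.46). Adjusted permutation p for these 3 were 3.5e-05 on r and 0.000378, 0.00021 and 0.0118 on rho. Leaving out the 2 mice farthest from the median of the first gene gave r of 0.79, 0.85 and 0.80. The value of 3.5e-05 rests on a raw p of 1e-05, the smallest that the resamples can give. Nrarp followed Dtx1 (r = 0.68, rho = 0.78, adjusted permutation p of 3.5e-05 and 0.00021) more closely than it followed Notch1 (r = 0.47, rho = 0.52, adjusted permutation p of 0.0102 and 0.0052), a difference that was not tested. Without the 2 farthest mice r was 0.71 and 0.45.

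Among the 26 lymphomas with Notch1 above every normal thymus, 13 of 21 pairs passed, over fewer tumours and with a restriction chosen after the values were seen. There Notch1 with Dtx1 had r = 0.64 (adjusted permutation p of 0.00197), Notch1 with Notch3 0.74 (0.000315), Notch1 with Hes1 0.64 (0.00327), Dtx1 with Nrarp 0.75 (0.000315) and Notch1 with Heyl 0.31 (0.129). Centring each lymphoma group on its own mean left 21 of 21 pairs, and leaving out mouse 881 left 20.

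**Figure D4:**
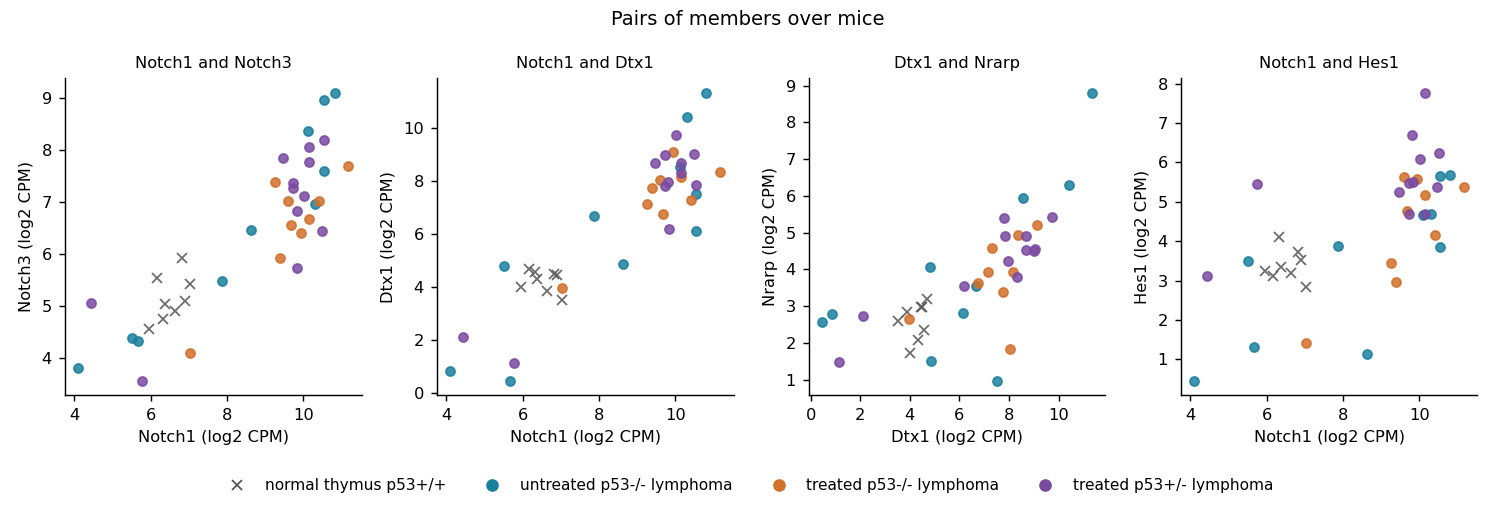
Log2 CPM of 4 pairs of members, 1 point per mouse, lymphomas as dots coloured by group and normal thymuses as crosses. Over the 31 lymphomas r was 0.85 for Notch1 with Notch3, 0.88 for Notch1 with Dtx1, 0.68 for Dtx1 with Nrarp and 0.65 for Notch1 with Hes1, with mouse 884 high in Hes1 at a low Notch1.

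The genes most like each member over the 31 lymphomas were picked by the highest Pearson r on log2 CPM, members left out, as a description with no test. For Notch1 they were AC117639.1 (r = 0.88), Hdgfrp3 (0.87) and Fkbp5 (0.86), and for Ptcra AC117639.1 (0.92), P2rx1 (0.92) and Hdgfrp3 (0.87). For Notch3 they were Arsi (0.85), Fkbp5 (0.81) and Cdc42ep4 (0.81), for Dtx1 Wdr25 (0.90), Paip1 (0.87) and Gm29125 (0.86), and for Hes1 Akr7a5 (0.77), Gm29125 (0.76) and Bivm (0.75). Heyl had Fam183b (0.81), Zcchc2 (0.79) and Sh3pxd2a (0.79), and Nrarp had Asap2 (0.79), Fstl3 (0.77) and Tmem132b (0.71). Fkbp5, the steroid-responsive chaperone, ranged from 71.9 to 1555 CPM over the lymphomas. AC117639.1, Gm29125 and Tmem132b had a CPM of 0 in at least 1 lymphoma, and their low values are coarse.

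Over the 54 biopsies of the 13 multifocal tumours, between 86.8% (Heyl) and 93.96% (Ptcra) of the variance of log2 CPM lay between tumours rather than within them. Over all 16389 genes the median was 70.5%, with quartiles of 53.5% and 81.2%. The standard deviation between tumours was 2.10 log2 units for Notch1 and 3.36 for Dtx1, against 0.71 and 1.06 within tumours. Notch1 spanned no more than 2.90-fold over the biopsies of 11 of the 13 tumours, the narrowest being mouse 903 (839.0 to 1072 CPM over 4 biopsies). A range of over 1 log2 unit was seen in 5 to 7 of the 13 tumours, depending on the gene. Dtx1 in tumour 881 ran from 8.37 to 54.1 CPM, from below to above the normal range, Ptcra in tumour 325 from 3.66 to 21.3 CPM and Ptcra in tumour 908 from 11.6 to 60.2 CPM. In tumour 899 the 5 biopsies read 1047 to 1616 CPM of Notch1 and 1173 to 1560 CPM of Dtx1.

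**Figure D5:**
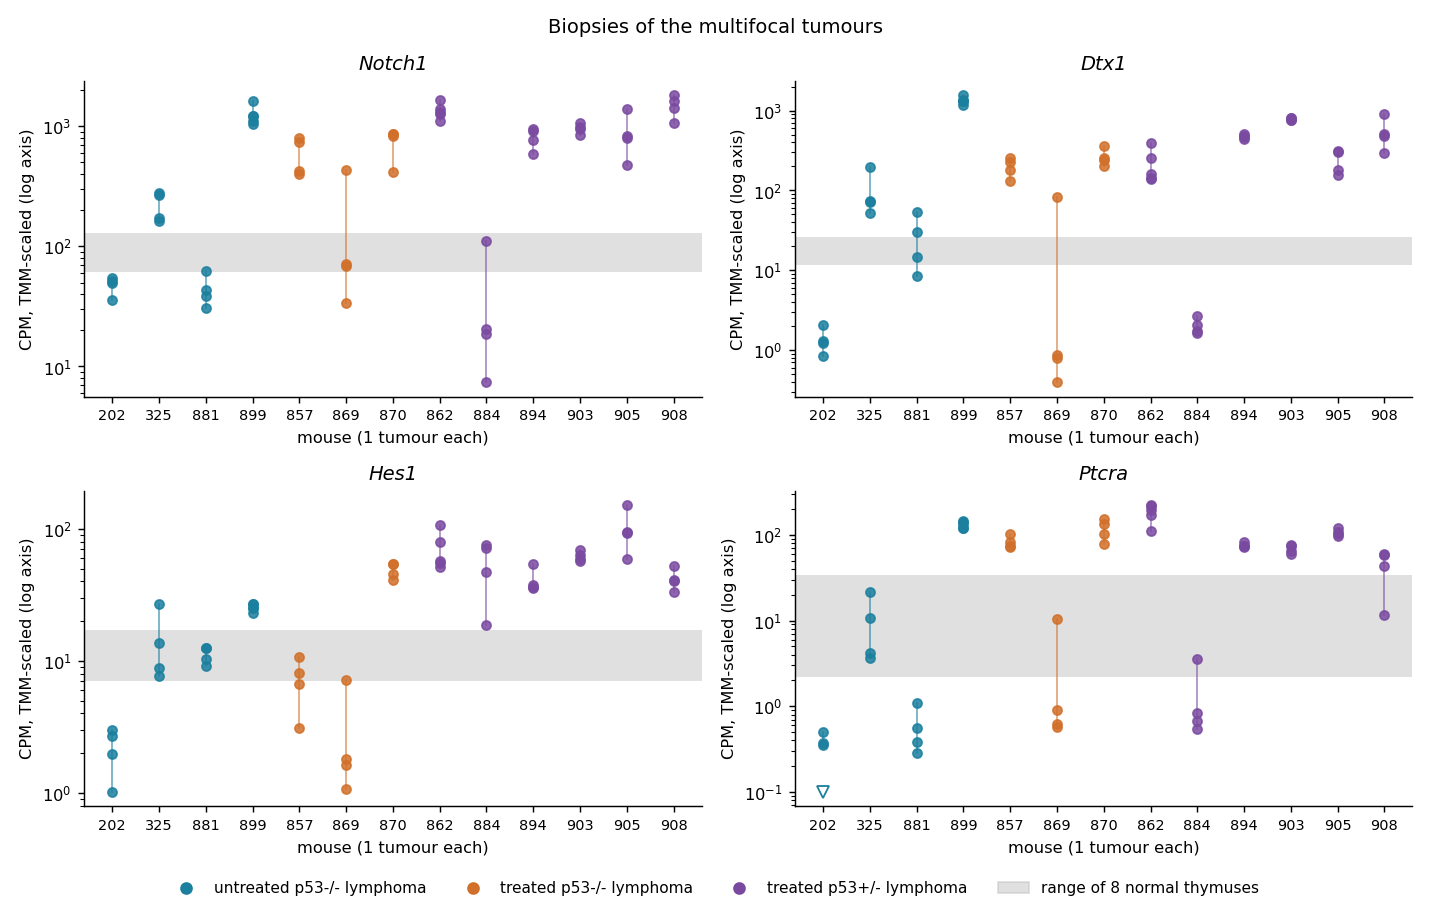
CPM of Notch1, Dtx1, Hes1 and Ptcra on log axes in each biopsy of the 13 multifocal tumours, 1 column per tumour, with the range of the 8 normal thymuses shaded and an open triangle for a Ptcra value of 0 (drawn at the lower edge). Wide spreads are seen in 869, where 1 biopsy has Dtx1 at 81.9 CPM and the other 3 under 1 CPM, and for Notch1 in 884 (7.36 to 110.9 CPM).

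Tumour 869 differed most among its biopsies in Dtx1. It is 1 of the mice whose sex genes go against the label, so its identity is in doubt, and all 4 biopsies carried male sex genes under a female label. The Y-linked genes differed in direction. Ddx3y read 19.2 CPM in biopsy 3 and 1.55 to 2.68 CPM in the others, and Uty 2.17 against 0.31 to 0.68 CPM. Eif2s3y (54.5 against 57.3 to 71.5 CPM) and Kdm5d (18.8 against 28.4 to 33.8 CPM) were lower in biopsy 3. Whether all 4 biopsies come from the same tumour was not tested. Its biopsy 3 read Notch1 at 428.8 CPM, while biopsies 1, 5 and 7 read 68.5, 33.6 and 71.2. Dtx1 was at 81.9 CPM (793 counts) in biopsy 3 and at 0.39, 0.85 and 0.80 CPM (6, 11 and 14 counts) in the others, a 209.8-fold range. Notch3 (50.6 against 7.36 to 10.7 CPM), Hes1 (7.23 against 1.08 to 1.82) and Ptcra (10.4 against 0.57 to 0.91) were higher in biopsy 3 as well, Nrarp less so (8.67 against 4.57 to 6.20), and Heyl was lower (2.48 against 11.9 to 12.9). Cd3e read 273.7 CPM in biopsy 3 and 112.7 to 139.8 CPM in the others. The 8 thymic epithelium markers summed to 252 CPM there and to 11, 11 and 14 CPM elsewhere, and the B-lineage markers to 54 CPM against 11 to 13. Of the smooth muscle genes, Acta2 read 91.5 CPM there against 9.37 to 17.4, and Myh11 15.1 CPM against 1.25 to 1.89. Their part in the difference was not tested. Without tumour 869 the variance between tumours was 92.9% for Notch1 and 96.9% for Dtx1.

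Tumour 884 also varied. Biopsy 2 read Notch1 at 110.9 CPM and biopsies 5, 6 and 8 read 7.36, 20.4 and 18.7 CPM, a 15.1-fold range. Hes1 ran the other way, at 18.7 CPM in biopsy 2 and 74.98, 47.4 and 71.7 in the rest, and all 4 values were above every normal thymus. Dtx1 stayed between 1.64 and 2.66 CPM and Ptcra between 0.55 and 3.53 CPM. Biopsy 2 also had the higher sums of thymocyte stage markers (773 CPM against 145 to 377), B-lineage markers (167 against 43 to 63) and T-lineage markers (4592 against 2865 to 3507). Fibroblast markers were lower there, at 377 CPM against 1201 to 1759. The part of these cells was not tested. Biopsies 5 and 8 held 3.81 M and 5.22 M counts, with Notch1 at 27 and 90 counts. Across biopsies of all tumours, after taking out each tumour's mean, r between Notch1 and Dtx1 was 0.55 with tumour 869 and 0.18 without it, and r between Notch1 and Hes1 was -0.01 and -0.42. Biopsies of a tumour share their animal and are not independent, so these are descriptions.

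The spread of the members within tumours was compared between lymphoma groups in 21 tests, whose smallest possible exact permutation p was 0.0286, 0.0119 or 0.00476, so that a single test could not have passed the adjustment. The mean standard deviation of Heyl among biopsies was 1.12 log2 units in the 3 treated p53-/- tumours and 0.36 in the 6 treated p53+/- tumours (exact permutation p = 0.0119, the smallest this design allows, adjusted to 0.24 over 21 tests). For Notch1 it was 0.87 in treated p53-/- and 0.34 in the 4 untreated p53-/- tumours (exact permutation p = 0.0286, likewise the smallest possible, adjusted 0.24). Of the 21 tests 3 had a raw p under 0.05. The treated p53-/- tumours included 869 and 857, the latter with biopsies of 1.03 M to 5.03 M counts and a single count of Heyl in its biopsy 5.

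Of 61 listed pathway genes 59 were tested, and 10, 9 and 10 were called higher and 10, 13 and 13 lower in the 3 contrasts with normal thymus, in the order used above. The shares of all genes called lower were 17.5%, 26.6% and 25.3%. The median log2 fold change of the list was 0.05, -0.22 and -0.12. Between lymphoma groups 0 of 57 tested were called by edgeR, where 0% of all genes were.

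Of 4 ligands tested, 2, 3 and 4 were called lower and none higher. Jag2 passed in treated p53+/- lymphomas (-1.05, edgeR adjusted p of 0.0334) and did not in the others (-0.07 with 0.921, and -0.53 with 0.322), and it exceeded the normal range in 3 lymphomas. Dll1 read 2.38 to 8.69 CPM in normal thymus and was below every normal thymus in 30 of the 31 lymphomas, with log2 fold changes of -2.72 ± 0.39, -2.81 ± 0.40 and -2.56 ± 0.36 (edgeR adjusted p of 1.09e-06, 4.61e-07 and 2.78e-07). The share of all genes that lay so low in as many lymphomas was not counted. Dll4, the ligand of thymic epithelium, fell from a median of 6.91 CPM to 1.32, 2.72 and 1.75 CPM (edgeR adjusted p of 2.18e-05, 0.00148 and 3.24e-06). The summed thymic epithelium markers were 130.4 to 2120 CPM in normal thymus and 12.1 to 360.5 CPM in lymphomas, and their part in the lower ligands was not tested. Notch4, a receptor of endothelium, fell too (-1.54 ± 0.40, -1.21 ± 0.40 and -1.64 ± 0.37, edgeR adjusted p of 0.00233, 0.0105 and 0.000354), while the endothelial markers summed to a median of 190.2 CPM in normal thymus and 118.5 to 156.3 CPM in the lymphoma groups.

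Among proteases, Furin, which processes the receptor precursor, was lower in the 3 lymphoma groups (-0.59, -1.19 and -0.64, edgeR adjusted p of 0.047, 9.52e-05 and 0.016), the single gene of 10 to be so called in all 3. Of the Fringe glycosyltransferases, which set the response of Notch to its ligands, Mfng rose by 1.198, 1.16 and 1.201 (edgeR adjusted p of 0.000517, 0.000315 and 0.000147) and Rfng fell by 0.73, 0.90 and 0.87 (0.00137, 6.46e-05 and 4.43e-05). Rbpj, the DNA-binding partner of Notch, rose modestly from a median of 61.5 CPM to 93.7, 99.2 and 97.6 CPM (edgeR adjusted p of 0.0328, 0.0166 and 0.0407).

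Coactivators went both ways. Kat2a, a histone acetyltransferase, was above every normal thymus in 31 of 31 lymphomas (medians of 133.2, 116.5 and 107.3 CPM against 45.3). Taking each group alone, 6.8%, 11.4% and 9.78% of all genes were above in every tumour, and over all 31 the share was not counted. Kat2b, a relative of Kat2a, fell by 0.88, 0.74 and 0.68 (edgeR adjusted p of 0.00232, 0.00639 and 0.00751). Maml2, a Mastermind coactivator, fell by 1.26, 3.03 and 2.55 (edgeR adjusted p of 0.0332, 4.68e-06 and 1.04e-05) and was below every normal thymus in 30 of 31 lymphomas, again with no share counted over all genes. Hdac1, a histone deacetylase of corepressor complexes, rose by 1.001, 1.15 and 1.40 (edgeR adjusted p of 0.000443, 4.83e-05 and 1.99e-06). None of the 8 turnover genes and antagonists was called in the untreated p53-/- or treated p53+/- group, and 2 fell in treated p53-/- lymphomas.

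Of 4 other Hes and Hey genes tested, 0, 0 and 1 were called higher and 1, 2 and 2 lower. Hey2, a low gene at 0.51 to 3.97 CPM in normal thymus, fell in the 3 groups (edgeR adjusted p of 0.0391, 0.0005 and 0.000105), and Hey1, chosen after its values were seen, was below every normal thymus in 26 of 31 lymphomas and called lower in both treated groups (edgeR adjusted p of 0.00388 and 0.000338). The share of all genes below in as many lymphomas as Hey1 was not counted. Hes6, also chosen after its values were seen, was called higher in treated p53+/- lymphomas (0.57 ± 0.24, edgeR adjusted p of 0.0452) and exceeded the normal range in 21 of 31 lymphomas. Its values of 0.49 and 0.52 in the other groups did not pass (0.121 and 0.0766). Of 11 further genes known as Notch targets in T cells, Myc was the single gene called in all 3 contrasts, rising by 2.29 ± 0.29, 2.16 ± 0.27 and 2.06 ± 0.26 (edgeR adjusted p of 7.12e-08, 5.66e-08 and 6.61e-08). All 31 lymphomas exceeded the normal range of Myc, including the 5 in which Notch1 was below its own. Within the single groups, 6.8%, 11.4% and 9.78% of all genes exceeded their normal range in every tumour. No share was counted over all 31.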

How the data were processed

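Bulk RNA of frozen thymic tissue was sequenced on an Illumina platform (81 libraries, 40 mice). The authors deposited RSEM expected counts per gene, and the submitters' processing notes name CASAVA 1.8, fastp, STAR 2.7.2b, RSEM 1.1.17 and build mm10. Strand settings are not given in the sources used here. Of all values 14.25% were not whole, and they were rounded. Gene positions and exon lengths came from GENCODE M21, in which 99.63% of the gene IDs were found.

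Biopsies were summed per mouse, so that the mouse was the replicate. Library totals ran from 1.03 M to 26.87 M counts, and low CPM values are less precise in the shallow libraries. Groups were compared with edgeR 4.0.16 (quasi-likelihood test, TMM factors, filterByExpr, labelled sex as covariate) under R 4.3.3. A fit with normal thymus tested 17843 genes and a fit of lymphomas 16389, with Benjamini-Hochberg adjustment over all of them at 0.05. Printed CPM values are scaled by TMM, and log2 CPM used a prior count of 2. Intervals are 95% intervals of the fit. On simulated counts for untreated lymphoma against normal thymus (17475 genes), the script recovered 91 of 200 changed genes, 62 of the 100 changed by 4-fold, with 2 false calls.

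Permutation tests compared mean log2 CPM between groups, as 42 tests with unadjusted p-values, exact where a group held under 10 mice and otherwise with 100000 resamples. They were added after the data were seen. The genes named are the 7 members, the 3 genes most like each over the lymphomas, and genes of the listed pathway called in all 3 contrasts with normal thymus (up to 3 rises and 3 falls a role). Some genes are not reported here. The members and all lists were chosen with earlier results of these data known. Alternatives were RLE or no scaling, no filter, DESeq2 1.42.0, limma 3.58.1 (voom) over all biopsies, no sex covariate, single-biopsy or deepest-biopsy data, only the 2 groups compared, adding the p53+/- normal thymus to the controls, and leaving out shallow libraries or doubted mice. Python 3.11.15 with scipy 1.17.1 did the remaining steps.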

Additional observations from a re-analysis of the deposited data

Results flagged for a closer look

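Single samples far from the rest of their group or tumour were looked for in 112 groups of 4 to 10 values by Dixon's gap criterion, and 13 were found, where chance alone gives about 5.6.

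Mouse 869 was the low extreme of the treated p53-/- lymphomas for 4 genes. Its Notch1 was at 130.5 CPM, the others at 614.4 CPM or above. Notch3 was at 16.98 CPM against 60.2 to 206.4, Dtx1 at 15.6 CPM against 108.3 to 558.3, and Ptcra at 2.52 CPM against 53.95 to 236.8. Within that tumour biopsy 3 stood apart in 3 genes, with Heyl at 2.48 CPM (others 11.9 to 12.9), Dtx1 at 81.9 CPM (others 0.390 to 0.853) and Ptcra at 10.4 CPM (others 0.569 to 0.911).

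Normal thymus 387 was low in Ptcra, at 2.19 CPM against 10.5 to 34.4 in the other 7. Biopsy 7 of tumour 202 was low in Nrarp, at 1.76 CPM against 5.98 to 7.14, and held 0 counts of Ptcra, where 3 counts would be 0.278 CPM and the other biopsies read 0.355 to 0.497 CPM. Biopsy 3 of tumour 870 read Notch1 at 413.7 CPM against 836.2 to 853.7 in the others. Biopsy 5 of tumour 894 read Hes1 at 54.2 CPM against 35.7 to 37.8. Biopsy 5 of tumour 857 read Heyl at 1.07 CPM, which is 1 count, against 5.58 to 6.56.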

How the results depend on the processing

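The number of members called in untreated p53-/- lymphomas against normal thymus (5) was 0 in voom over all biopsies, 3 with only the 2 groups compared, and 1 by the permutation test at an unadjusted p under 0.05. For treated p53-/- lymphomas (4) it was 2 with no filter, 1 in voom and 7 with only the 2 groups compared, and DESeq2 called Heyl in addition. By the unadjusted permutation test every member but Hes1 (p = 0.109) was under 0.05 there. In treated p53+/- lymphomas every member but Ptcra (p = 0.14) was. For each of the 3 contrasts between lymphoma groups (0) the number was 1 by the permutation test. Correlated pairs (20) were 13 among the 26 lymphomas with Notch1 above every normal thymus. In voom, where each biopsy is a sample and no mean of counts is formed, the sign turned for Hes1 (-0.11) and Ptcra (-1.61) in the untreated group. It also turned for Notch3 (0.30), Dtx1 (1.56) and Nrarp (0.14) in treated against untreated p53-/-, for Notch1 (-0.21) between the treated groups, and for Notch3 (0.71), Heyl (0.87), Dtx1 (2.19) and Nrarp (0.79) in treated p53+/- against untreated p53-/-. The difference of Notch1 between the treated groups, 0.00, fell below 0 with RLE (-0.0014), no scaling (-0.0749), DESeq2 (-0.0015), no sex covariate (-0.185), without mice whose sex genes go against the label (-0.13), with only those groups (-0.0197), single-biopsy tumours (-0.43), no libraries under 5 M counts (-0.0043), the deepest biopsy (-0.0939) and without mouse 869 (-0.17). Single-biopsy tumours also turned Dtx1 (-0.15) and Nrarp (-0.13) there, and Notch1 (-0.0078) in treated p53+/- against untreated p53-/-. In that last contrast Notch3 turned to 0.016 with no scaling, and Heyl to 0.34 and Dtx1 to 0.18 with only the 2 groups. None of these reversed values between lymphoma groups passed its test, and the causes were not tested. Over all member-level alternatives 494 kept direction and side of the threshold, 22 lost a call, 4 gained one and 26 reversed. No paired analysis was possible because the mice of different groups share no replicate numbers. The low genes Hes1, Heyl and Nrarp rest on few counts in the shallow biopsies of tumour 857.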

Other observations

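In tumour 908 the biopsy lowest in Ptcra, inside the normal range, was the highest in Dtx1: Ptcra read 60.2, 58.5, 43.1 and 11.6 CPM where Dtx1 read 292, 510, 485 and 904 CPM. In tumour 325 the biopsy with the highest Dtx1 (196.9 CPM, the others 51.5 to 74.4) was also the highest in Ptcra (21.3 CPM, the others 3.66 to 10.7).

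The single normal thymus from a p53+/- mouse read Notch1 at 129.5 CPM, Notch3 at 38.0, Hes1 at 11.1, Heyl at 5.27, Dtx1 at 19.5, Nrarp at 6.06 and Ptcra at 20.2 CPM, and it was among the controls in 1 alternative fit, which kept the direction and call of all 21 member values.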
